A study of Mus musculus with 6 samples.

Results

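The genes of the sarco/endoplasmic reticulum calcium pumps (Atp2a1, Atp2a2 and Atp2a3) and of their small membrane regulators phospholamban (Pln) and sarcolipin (Sln) were followed in mouse hearts. They were taken by symbol from a table of 54532 genes, and all 5 were found. Messenger RNA had been sequenced from the hearts of mice 15 days of age, 3 of genotype Nat10-CKO, in which Nat10 is knocked out in cardiomyocytes, and 3 of genotype Nat10flox/flox, which carry the floxed allele. The promoter that drives the recombinase and its presence in the flox mice are not given in the sources used here. Levels are FPKM, read fragments scaled for the length of the gene and the depth of the library.

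Between heartbeats, the pumps use ATP to move calcium from the cytosol back into the sarcoplasmic reticulum, which relaxes the muscle and refills the store for the next beat. Atp2a2 encodes the main pump of heart muscle, Atp2a1 that of fast skeletal muscle, and Atp2a3 a form known mainly from blood, endothelial and epithelial cells. Phospholamban lowers the calcium affinity of the cardiac pump until it is phosphorylated by protein kinase A or CaMKII, and sarcolipin, in mice a protein of atrial and skeletal muscle, inhibits the pump in a related way.

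The reads recovered from the values summed to between 15048038 and 16280061 per heart. Nat10 itself, the gene named in the genotype, was at 3.69, 3.75 and 4.18 FPKM in CKO replicates 1, 2 and 3, against 3.87, 3.78 and 4.57 FPKM in flox replicates 1, 2 and 3. The groups overlapped (log2 change −0.06, 95% interval −0.33 to 0.22, limma adjusted p = 0.768). The sign of that change turned under TPM and total-count scaling, and directions are therefore given for hearts labelled CKO. These gene-level values cover all exons and all cells of a sample, so a loss of Nat10 within cardiomyocytes was not tested. Heart muscle markers were high in each heart, with the adult cardiac myosin gene Myh6 at 1956 to 3083 FPKM in CKO-labelled hearts and 4143 to 6150 FPKM in flox hearts.

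Atp2a2 and Pln were called lower, and both were lower in every CKO-labelled heart than in every flox heart. Atp2a3 and Sln were not called, and Atp2a1 was too low to be tested. A filter of 1 FPKM, on the mean over the 6 hearts, passed 4 of the 5, and these were tested with limma on log2(FPKM + 1) among 12469 genes. Of these 4, 2 passed a Benjamini-Hochberg adjusted p of 0.05, both lower. Over all genes tested, 14.1% were called, 7.19% as lower and 6.93% as higher. That split depends on the scaling: 864 were higher and 897 lower as deposited, 1447 higher and 654 lower with TPM, and 1295 higher and 655 lower with total-count scaling. The last 2 moved the median log2 change of all genes to 0.11, against −0.00 as deposited, and relative to that median Atp2a2 stood at −1.31 with either and Pln at −1.06. The groups did not overlap, with the CKO-labelled hearts below, for 2 of the 4. Over all genes tested, 39.6% did not overlap, 19.9% with the CKO-labelled hearts below and 19.7% with them above.

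**Figure D1:**
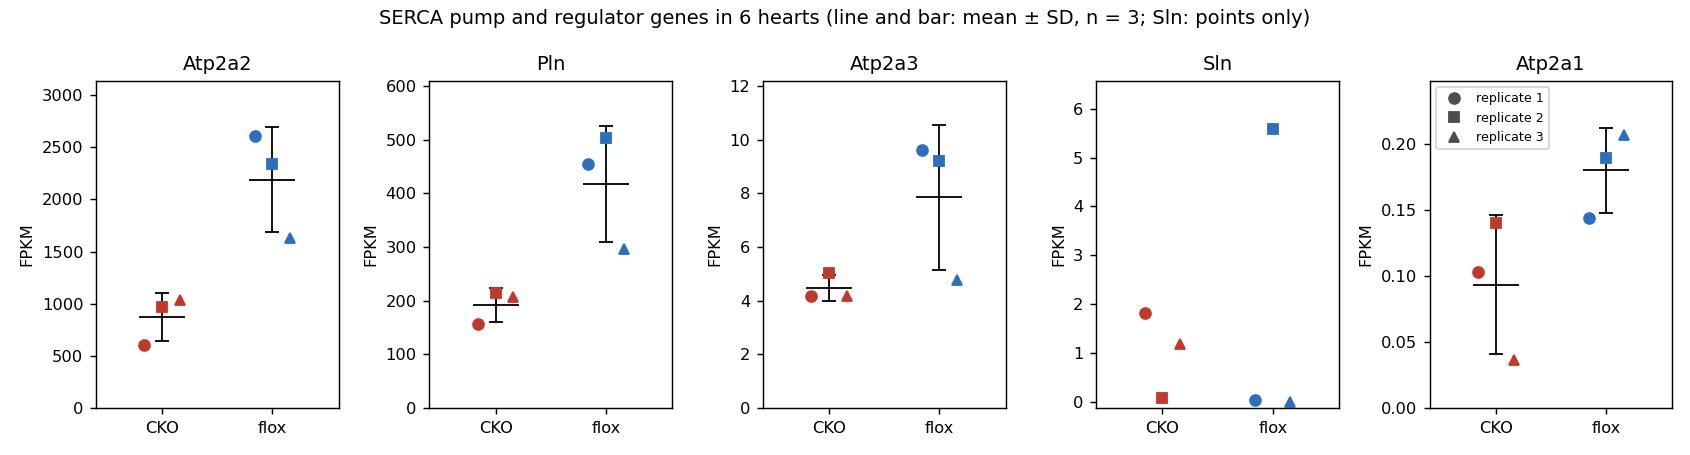
FPKM of the 5 genes in each heart, CKO-labelled hearts on the left and flox hearts on the right of each panel, with mean ± SD (n = 3) except for Sln. Atp2a2 and Pln lay at no more than 1033 and 213 FPKM in CKO-labelled hearts and at no less than 1629 and 296 FPKM in flox hearts. Sln was low throughout, at no more than 5.58 FPKM, and its higher values fell in hearts of both groups.

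Atp2a2 (ENSMUSG00000029467, chromosome 5, 122453513 to 122502225, minus strand, GRCm38) ranked 17 of all genes by mean FPKM. It was at 605, 971 and 1033 FPKM in CKO replicates 1, 2 and 3, against 2605, 2338 and 1629 FPKM in flox replicates 1, 2 and 3. CKO replicate 1 was the lowest heart, and flox replicate 3 was the flox heart nearest to the CKO-labelled ones. The means were 869 ± 231 FPKM in CKO-labelled hearts and 2191 ± 505 FPKM in flox hearts (SD, n = 3 each), 0.397-fold. The log2 change was −1.34 ± 0.27 (SE; 95% interval −1.97 to −0.72; limma adjusted p = 0.0207), and the exact two-sided permutation p was 0.1, the smallest that 3 hearts against 3 allow. Only 1.5% of the genes tested had a lower log2 change. The call was lost without flox replicate 1 (limma adjusted p = 0.0835) or flox replicate 2 (limma adjusted p = 0.0812), with changes of −1.20 and −1.28. It was also lost when all genes with any read were tested (limma adjusted p = 0.122).

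As a share of sequenced material, Atp2a2 held 0.389%, 0.627% and 0.660% of the recovered reads in CKO replicates 1, 2 and 3. In flox replicates 1, 2 and 3 it held 1.43%, 1.36% and 1.02%. These shares rest on at least 61490 reads per heart, so counting error is small beside the spread between hearts. The gene has 5 annotated transcripts, among them the cardiac splice form and the widely expressed one, and the gene-level values do not separate them.

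Some cardiomyocyte markers were also lower. Of 12 tested, which include Pln, 5 were lower, 0 higher and 7 not called by limma (41.7% called, against 14.1% of all genes), with a median log2 change of −0.48 against −0.00 over all genes tested. Without Pln, the summed level of the other 11 was 12276 to 13419 FPKM in CKO-labelled hearts and 16798 to 21123 FPKM in flox hearts. In RNA of heart tissue, fewer muscle cells and less of an RNA per muscle cell cannot be told apart. Fibroblast markers lay the other way. Of 12 tested, 5 were higher, among them the collagen genes Col1a1 and Col1a2, 0 lower and 7 not called by limma. Of these markers, 41.7% were called, against 14.1% of all genes, at a median log2 change of 0.47. Their summed level was 1267 to 1670 FPKM in CKO-labelled hearts and 862 to 1124 FPKM in flox hearts, and their part in the values of Atp2a2 and Pln was not tested. Relative to the cardiomyocyte marker sum, Atp2a2 stood at 4.51%, 7.91% and 8.33% in CKO replicates 1, 2 and 3, against 12.3%, 11.6% and 9.70% in flox replicates 1, 2 and 3. The groups did not overlap on this scale either, and the mean was 6.91 ± 2.10% in CKO-labelled hearts and 11.2 ± 1.37% in flox hearts (SD, n = 3 each). The marker sum includes genes that were themselves called, such as Myh6 and Tnnt2 (cardiac troponin T).

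The 3 annotated features that lie inside the Atp2a2 span had fewer reads in every CKO-labelled heart than in any flox heart. Gm43359 and Gm43360 share no exonic base with Atp2a2, while Gm43361, on the opposite strand, shares 83. Gm43359 had 4, 8 and 10 reads in CKO replicates 1, 2 and 3, against 48, 28 and 18 in flox replicates 1, 2 and 3. Gm43360 had 17, 11 and 3 reads in the CKO-labelled hearts, in the same order, against 32, 34 and 34 in the flox hearts. Gm43361 had 8, 20 and 7 reads in the CKO-labelled hearts, against 47, 49 and 27 in the flox hearts. For each of these features the groups did not overlap. All were below the filter of 1 FPKM and were not tested. Over all genes tested, 19.9% did not overlap, with the CKO-labelled hearts below, a share that does not cover genes under the filter. Gm43359 and Gm43360 lie on the strand of Atp2a2, and their reads cannot be told from unspliced Atp2a2 RNA. For Gm43361 the same holds if the counting did not use strand, which the sources used here do not give.

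**Figure D2:**
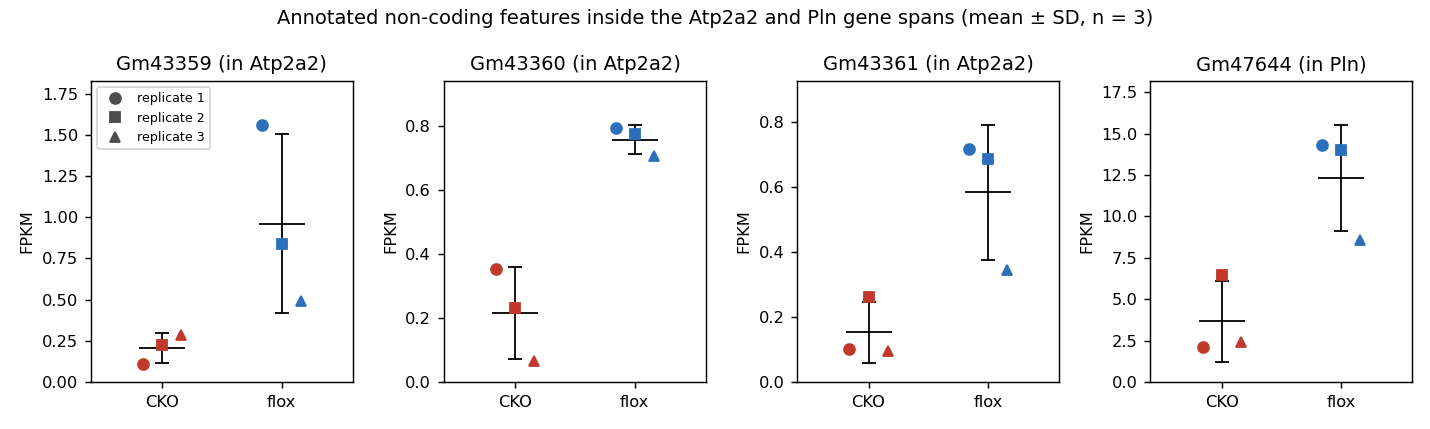
FPKM of annotated features inside the Atp2a2 span (Gm43359, Gm43360, Gm43361) and the Pln span (Gm47644), CKO-labelled hearts left of flox hearts, with mean ± SD (n = 3). In each panel every CKO-labelled heart lay below every flox heart, for Gm47644 at no more than 6.47 FPKM against at least 8.60 FPKM.

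Pln (ENSMUSG00000038583, chromosome 10, 53337667 to 53345987, plus strand, GRCm38) encodes phospholamban and ranked 103 by mean FPKM. Its level was 156, 213 and 207 FPKM in CKO replicates 1, 2 and 3, against 454, 503 and 296 FPKM in flox replicates 1, 2 and 3. As for Atp2a2, CKO replicate 1 was lowest, and flox replicate 3 lay nearest to the CKO-labelled hearts. The means were 192 ± 31.3 FPKM in CKO-labelled hearts and 417 ± 108 FPKM in flox hearts (SD, n = 3 each), 0.460-fold. The log2 change was −1.09 ± 0.23 (SE; 95% interval −1.64 to −0.54; limma adjusted p = 0.0256; exact permutation p = 0.1, the smallest possible). Without flox replicate 1, flox replicate 2, CKO replicate 1 or CKO replicate 3 the call was lost, with limma adjusted p of 0.105, 0.0945, 0.0533 and 0.0614. It was also lost when all genes with any read were tested (limma adjusted p = 0.0834).

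Relative to the cardiomyocyte marker sum, Pln stood at 1.16%, 1.74% and 1.67% in CKO replicates 1, 2 and 3, against 2.15%, 2.50% and 1.76% in flox replicates 1, 2 and 3. The highest CKO-labelled heart and the lowest flox heart were then close to each other. The count of Pln is limited by its neighbours. Of its 2759 annotated exonic bases, 1785 (64.7%) also lie in exons of Gm47644 or Cep85l, both on the opposite strand. Reads in those bases are uncertain where strand is not used. Gm47644 had 2.12, 6.47 and 2.40 FPKM in CKO replicates 1, 2 and 3, against 14.3, 14.0 and 8.60 FPKM in flox replicates 1, 2 and 3, and was also called lower (log2 change −1.60 ± 0.35, limma adjusted p = 0.0265). That call was lost without any 1 of flox replicates 1 and 2 and CKO replicates 1 and 3 (limma adjusted p up to 0.0984). Cep85l, a centrosomal protein gene whose span contains Pln, was at 2.62 to 3.79 FPKM in CKO-labelled hearts and 3.78 to 4.98 FPKM in flox hearts. It was not called (log2 change −0.31, 95% interval −0.66 to 0.05, limma adjusted p = 0.211).

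The start region of Pln is shown because Pln was lower together with Atp2a2 and, unlike Atp2a2, matched the promoter table used here. That of Atp2a3 is shown because that pump gene is described below. Of the 5 genes, 3 (Atp2a1, Atp2a3 and Pln) matched the RefSeq promoter table (GRCm38.p6), which gives 250 bases before and 50 after each start. Both sequences run 5′ to 3′ on the plus strand, Pln at chr10:53337436-53337735 and Atp2a3 at chr11:72960919-72961218. Capitals mark every match, on either strand, to the E-box motif CANNTG, the CAAT-box motif CCAAT, the GATA-factor motif GATAAG, the GC-box motif GGGCGG or the TATA-box motif TATAAA, and matches may overlap.
Pln promoter: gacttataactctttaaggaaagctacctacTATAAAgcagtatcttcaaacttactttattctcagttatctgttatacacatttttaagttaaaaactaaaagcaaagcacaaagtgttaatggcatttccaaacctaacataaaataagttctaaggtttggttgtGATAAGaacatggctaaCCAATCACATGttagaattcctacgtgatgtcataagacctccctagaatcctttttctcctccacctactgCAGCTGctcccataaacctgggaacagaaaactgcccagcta
Atp2a3 promoter: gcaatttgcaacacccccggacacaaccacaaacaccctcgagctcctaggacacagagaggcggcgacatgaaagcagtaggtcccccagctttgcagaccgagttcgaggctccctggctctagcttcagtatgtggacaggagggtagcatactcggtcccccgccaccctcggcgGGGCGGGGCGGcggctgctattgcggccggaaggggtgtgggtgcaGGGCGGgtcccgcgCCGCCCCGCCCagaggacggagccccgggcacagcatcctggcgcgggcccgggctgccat

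The Pln window held 2 E-box matches, 1 CAAT-box match, 1 GATAAG match and 1 TATA-box match, and no GC box. Its G and C content was 36.0%, and 4.64% of the 32851 promoters of that length had less. The Atp2a3 window held 5 GC box matches and none of the other motifs, at a G and C content of 68.3%. Among all promoters of the table, 72.3% held an E-box, 37.4% a CAAT box, 7.44% the GATAAG motif, 35.7% a GC box and 13.6% a TATA box. A match describes the letters of the window only.

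The level of Pln relative to Atp2a2 was 0.258, 0.220 and 0.200 in CKO replicates 1, 2 and 3, against 0.174, 0.215 and 0.181 in flox replicates 1, 2 and 3 (FPKM over FPKM). The groups overlapped, because flox replicate 2 lay above CKO replicate 3. The mean ratio was 0.226 ± 0.030 in CKO-labelled hearts and 0.190 ± 0.022 in flox hearts (SD, n = 3 each), a difference of 0.036, which is given without a test. The size of the ratio carries the limit on Pln reads given above. All 3 pump genes together came to 609, 976 and 1037 FPKM in CKO replicates 1, 2 and 3, against 2615, 2348 and 1634 FPKM in flox replicates 1, 2 and 3. Atp2a2 made up 99.3% to 99.6% of that sum in CKO-labelled hearts and 99.6% to 99.7% in flox hearts.

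**Figure D3:**
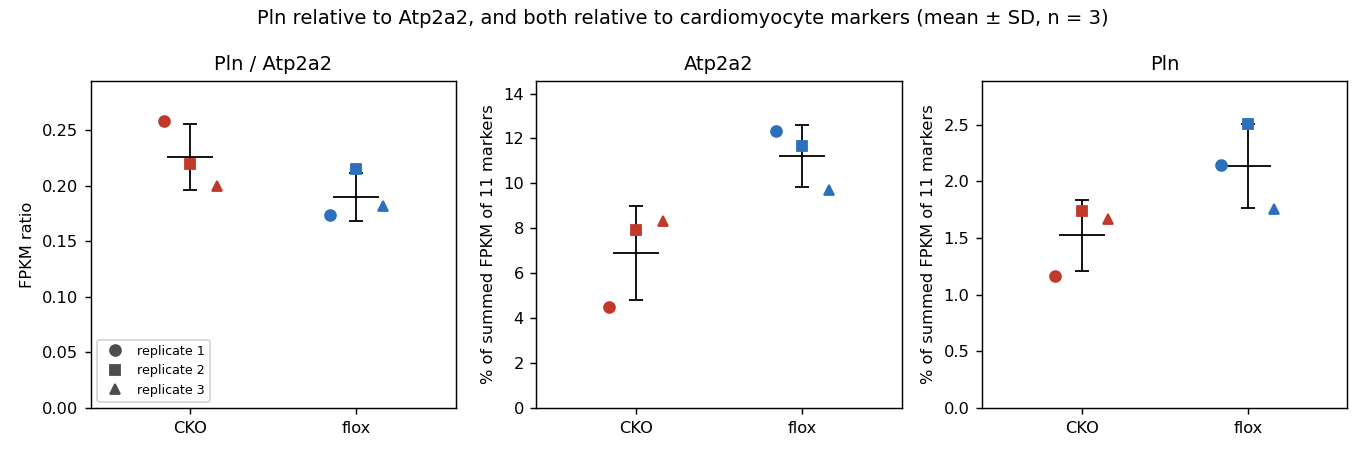
Pln FPKM over Atp2a2 FPKM (left), and Atp2a2 and Pln as a percent of the summed FPKM of 11 cardiomyocyte markers, CKO-labelled hearts left of flox hearts, with mean ± SD (n = 3). The ratio overlapped between groups (0.200 to 0.258 against 0.174 to 0.215), and both percentages were lower in every CKO-labelled heart than in every flox heart.

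Atp2a3 (ENSMUSG00000020788, chromosome 11, 72961169 to 72993044, plus strand) was at 4.19, 5.05 and 4.18 FPKM in CKO replicates 1, 2 and 3, against 9.61, 9.21 and 4.75 FPKM in flox replicates 1, 2 and 3. The groups overlapped in 1 pair, since flox replicate 3 lay below CKO replicate 2. Its log2 change was −0.65 ± 0.24 (SE; 95% interval −1.20 to −0.09), which did not pass the threshold (limma adjusted p = 0.109; exact permutation p = 0.2). Flox replicate 3 decided this: without it the change was −0.93 and was called (limma adjusted p = 0.0139). With array weights it was called as well (−0.76, limma adjusted p = 0.0396). As a share of the pump sum, Atp2a3 made up 0.688%, 0.517% and 0.403% in CKO replicates 1, 2 and 3, against 0.367%, 0.392% and 0.291% in flox replicates 1, 2 and 3.

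Markers of cells that can carry Atp2a3 differed in how they lay between the groups. The 12 endothelial markers summed to 605 to 721 FPKM in CKO-labelled hearts and 691 to 772 FPKM in flox hearts, with 1 higher and 11 not called. The 12 leukocyte markers summed to 122 to 224 FPKM in CKO-labelled hearts and 100 to 113 FPKM in flox hearts, with 1 of 7 tested higher. The 8 platelet markers summed to 19.3 to 35.7 FPKM in CKO-labelled hearts and 13.3 to 23.8 FPKM in flox hearts, with 1 of 3 tested higher and Gp1bb at 0 in all hearts. The 11 smooth muscle and pericyte markers summed to 486 to 556 FPKM in CKO-labelled hearts and 651 to 820 FPKM in flox hearts, with 2 of 10 tested lower. By limma, 14.1% of all genes tested were called. The called share was 8.33% for endothelial, 14.3% for leukocyte, 33.3% for platelet and 20% for smooth muscle and pericyte markers. The part of these cells in the Atp2a3 values was not tested.

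Sln (ENSMUSG00000042045, chromosome 9, 53850164 to 53854560, plus strand) split the hearts across the genotypes. It was at 1.81, 0.0923 and 1.20 FPKM in CKO replicates 1, 2 and 3, against 0.0542, 5.58 and 0 FPKM in flox replicates 1, 2 and 3. These values stand for 40, 2 and 25 reads in the CKO-labelled hearts and 1, 112 and 0 reads in the flox hearts, in the same order. A count of 0 in flox replicate 3 allows up to 3 reads, or 0.136 FPKM, for counting error only. The log2 change was −0.01 ± 0.73 (SE; 95% interval −1.72 to 1.69; limma adjusted p = 0.992; exact permutation p = 1). Its sign turned without flox replicate 2 (0.88, limma adjusted p = 0.241) or without CKO replicate 2 (0.38). It also turned with a pseudocount of 0.1 (0.82), with scaling to TPM (0.04) and in a count-based fit of the recovered reads (1.58, limma adjusted p = 0.579). No direction is given for Sln between the genotypes.

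The hearts with Sln were those with atrial light chains. Myl7, the atrial regulatory myosin light chain, was at 31.2, 0.206 and 25.9 FPKM in CKO replicates 1, 2 and 3, against 0.242, 77.7 and 0.406 FPKM in flox replicates 1, 2 and 3. Myl4, the atrial essential light chain, was at 8.86, 0.814 and 5.08 FPKM in CKO replicates 1, 2 and 3, against 0.663, 10.4 and 1.05 FPKM in flox replicates 1, 2 and 3. Flox replicate 2 was highest for Sln, Myl7 and Myl4, followed by CKO replicate 1 and then CKO replicate 3, and the other 3 hearts were low for each. In the 3 high hearts, Sln FPKM over Myl7 FPKM was 0.0581 in CKO replicate 1, 0.0462 in CKO replicate 3 and 0.0718 in flox replicate 2. The ratio was 0.448 in CKO replicate 2, 0.224 in flox replicate 1 and 0 in flox replicate 3. Those 3 values rest on only 2, 2 and 4 reads of Myl7.

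**Figure D4:**
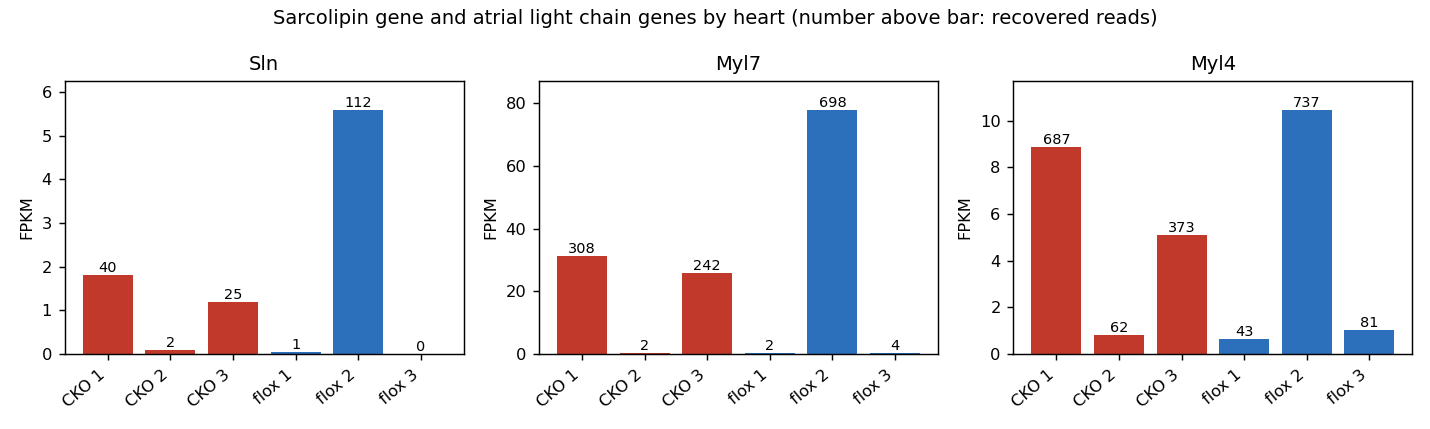
FPKM of Sln, Myl7 and Myl4 in each heart, CKO-labelled hearts in red on the left and flox hearts in blue on the right, with recovered reads above each bar. CKO replicates 1 and 3 and flox replicate 2 are the high hearts in all panels, and for Sln these 3 hearts hold 40, 25 and 112 reads.

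Of the 13 atrial markers, only Myl7 and Myl4 followed that order. Fgf12 was highest in the same hearts in another order, at no more than 0.349 FPKM. Kcnj3, Tbx5, Kcna5 and Nr2f1 were highest in flox replicate 1, and Nr2f2 in CKO replicate 2. Kcnj3 was at 0 to 0.350 FPKM in CKO-labelled hearts and 3.73 to 7.13 FPKM in flox hearts. Nppa, the gene of atrial natriuretic peptide, which stressed ventricles also make, was at 1319 to 2399 FPKM in CKO-labelled hearts and 9.34 to 34.8 FPKM in flox hearts, so that the summed level of the list follows Nppa. It was 1403 to 2489 FPKM in CKO-labelled hearts and 61.8 to 166 FPKM in flox hearts. Of the 10 atrial markers tested, 2 were higher, 2 lower and 6 not called (40% called, against 14.1% of all genes). The part of atrial muscle in the values of Atp2a2 and Pln was not tested.

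Atp2a1 (ENSMUSG00000030730, chromosome 7, 126445858 to 126463108, minus strand) was close to absent. It had 6, 8 and 2 reads in CKO replicates 1, 2 and 3, against 7, 10 and 12 reads in flox replicates 1, 2 and 3, or at most 0.207 FPKM. In FPKM the groups did not overlap, at up to 0.140 in CKO-labelled hearts and from 0.144 in flox hearts, while their reads did. It fell under the filter and had no limma test (exact permutation p = 0.1, the smallest possible). Of its exonic bases, 21.9% also lie in exons of Rabep2 on the opposite strand. The skeletal muscle markers were low as well: 15 of 20 stayed under 1 FPKM in every heart, and the fast myosin genes Myh1 and Myh2 and the regulator Myod1 had 0 reads in all hearts. Their summed level was 23.1 to 26.1 FPKM in CKO-labelled hearts and 19.1 to 28.7 FPKM in flox hearts, most of it from Mybpc2, a myosin-binding protein, and Tnnt1, the slow skeletal troponin T. These 2 were called in opposite directions. Mybpc2 averaged 15.6 FPKM in CKO-labelled hearts and 4.96 FPKM in flox hearts (log2 change 1.49 ± 0.19, limma adjusted p = 0.00593). Tnnt1 averaged 4.63 FPKM in CKO-labelled hearts and 10.4 FPKM in flox hearts (−1.02 ± 0.20, limma adjusted p = 0.0184). The other tested marker was not called (66.7% of 3 called, against 14.1% of all genes).

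Further small membrane proteins that act on the pumps were looked for by symbol, and RefSeq synonyms were used to place them. Strit1, listed as Gm34302, encodes DWORF, which counters inhibition of the pump. It had 0 reads in CKO replicates 1, 2 and 3, against 7, 3 and 3 reads in flox replicates 1, 2 and 3. The floor of 3 reads corresponds to 0.738 to 0.780 FPKM for this gene in the CKO-labelled hearts, because only 243 bases are annotated. The flox hearts were at 2.06, 0.811 and 0.739 FPKM, of which the lowest lies at the level of that floor. The groups did not overlap (exact permutation p = 0.1, the smallest possible). The gene was under the filter and had no limma test, and no fold is given. Mrln, which encodes the skeletal muscle inhibitor myoregulin, had 1, 1 and 2 reads in the CKO-labelled hearts and 2, 7 and 1 reads in the flox hearts. Smim6, the gene of endoregulin, had 9, 13 and 8 reads in the CKO-labelled hearts and 15, 15 and 10 reads in the flox hearts, and it overlaps another gene. 1810037I17Rik, the gene of another-regulin, was the only one of these above the filter, at 33.7, 17.9 and 17.9 FPKM in CKO replicates 1, 2 and 3, against 18.1, 22.1 and 22.2 FPKM in flox replicates 1, 2 and 3. It was not called (log2 change 0.09, 95% interval −0.48 to 0.67, limma adjusted p = 0.823).

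Most genes that set the phosphorylation of phospholamban were not called, and those called were lower. Of 21 kinases, phosphatases, anchors and cyclic AMP genes tested, 5 were lower, 0 higher and 16 not called by limma (23.8% called, against 14.1% of all genes), at a median log2 change of −0.22. Prkaca, the catalytic subunit of protein kinase A in heart, was at 79.9, 92.3 and 91.3 FPKM in CKO replicates 1, 2 and 3, against 158, 147 and 134 FPKM in flox replicates 1, 2 and 3 (log2 change −0.73 ± 0.14, limma adjusted p = 0.0165). The other 4 were Camk2a, a CaMKII subunit best known from brain (−1.10), Akap6, an anchor of protein kinase A at the nuclear envelope and the sarcoplasmic reticulum (−0.85), Pde4d, a phosphodiesterase that breaks down cyclic AMP (−0.82), and Adrb1, the main cardiac beta-adrenergic receptor (−0.73). Their limma adjusted p ran from 0.0263 to 0.0430. The call of Prkaca was lost without flox replicate 1 or 2, those of Camk2a and Adrb1 also without CKO replicate 3, and that of Adrb1 also without flox replicate 3. Akap6 lost its call without CKO replicate 3 or any 1 flox heart, and Pde4d without any 1 heart but CKO replicate 2 (limma adjusted p up to 0.154). Akap6 also lost it with TPM and total-count scaling (limma adjusted p of 0.0661 and 0.0559). Camk2d, the main CaMKII gene of heart, named after its values were seen, was at 11.3 to 13.3 FPKM in CKO-labelled hearts and 10.2 to 10.9 FPKM in flox hearts and was not called (log2 change 0.17, 95% interval −0.10 to 0.43, limma adjusted p = 0.345).

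Among 9 genes whose proteins are reported to bind the pump, only Hrc was called, a histidine-rich calcium-binding protein of the store (11.1% of the 9, against 14.1% of all genes; median log2 change 0.15). It was at 19.3, 46.7 and 33.8 FPKM in CKO replicates 1, 2 and 3, against 226, 168 and 149 FPKM in flox replicates 1, 2 and 3 (log2 change −2.47 ± 0.31, limma adjusted p = 0.00612). CKO replicate 1 was lowest, as for Atp2a2 and Pln, and leaving out any 1 heart kept the call (highest limma adjusted p 0.0304). S100a1, Hax1, Calr, Canx, Tmx1, Vmp1 and Sri were among those not called.

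Of 12 tested genes for calcium release and storage, 1 was higher, 1 lower and 10 not called (16.7% called, against 14.1% of all genes), at a median log2 change of −0.24. Casq1, the calsequestrin of skeletal muscle, was at 48.9, 35.7 and 90.7 FPKM in CKO replicates 1, 2 and 3, against 6.08, 7.34 and 4.57 FPKM in flox replicates 1, 2 and 3 (log2 change 3.00 ± 0.33, limma adjusted p = 0.0038). Atp2a1, the pump that works beside it in fast skeletal muscle, had at most 8 reads in CKO-labelled hearts. Trdn, which encodes triadin and ties calsequestrin to the release channel, was at 16.1, 20.8 and 19.8 FPKM in CKO replicates 1, 2 and 3, against 36.3, 33.9 and 25.5 FPKM in flox replicates 1, 2 and 3 (−0.72 ± 0.17, limma adjusted p = 0.0342). Ryr2, the cardiac release channel, averaged 34.2 FPKM in CKO-labelled hearts and 66.5 FPKM in flox hearts (−1.04, limma adjusted p = 0.0942). Casq2, the cardiac calsequestrin, averaged 266 FPKM in CKO-labelled hearts and 369 FPKM in flox hearts (−0.47, limma adjusted p = 0.0999). Neither was called. Casq1 stayed called whichever heart was left out (highest limma adjusted p 0.0178). That of Trdn was lost in 4 of the 6 fits, those without flox replicate 1 or 2 or CKO replicate 1 or 3 (limma adjusted p up to 0.139).

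Other routes that move calcium across membranes gave 1 call among 13 tested genes (7.69% called, against 14.1% of all genes; median log2 change −0.08). Cacna1c, the pore of the cardiac L-type channel through which calcium enters at each beat, was at 3.55, 8.45 and 8.03 FPKM in CKO replicates 1, 2 and 3, against 26.1, 21.8 and 14.5 FPKM in flox replicates 1, 2 and 3 (log2 change −1.54 ± 0.32, limma adjusted p = 0.0233). It was not called without flox replicate 1 or 2 (limma adjusted p of 0.0874 and 0.0823). Slc8a1, the sodium-calcium exchanger that competes with the pump for cytosolic calcium, named after its values were seen, was at 21.6, 50.6 and 65.9 FPKM in CKO replicates 1, 2 and 3, against 58.8, 50.4 and 58.0 FPKM in flox replicates 1, 2 and 3. Its groups overlapped and it was not called (−0.41, 95% interval −1.26 to 0.45, limma adjusted p = 0.477).

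Thyroid hormone is known to raise transcription of the cardiac pump gene, and its receptors and handling genes were listed beside it. This list, like the others, was chosen with earlier results of these data known, so its called share is a description only. Of 12 tested, 1 was higher, 4 lower and 7 not called (41.7% called, against 14.1% of all genes; median log2 change −0.51). Dio2, the deiodinase that makes the active hormone in cells, was at 8.64, 6.34 and 7.54 FPKM in CKO replicates 1, 2 and 3, against 0.701, 0.576 and 1.28 FPKM in flox replicates 1, 2 and 3 (log2 change 2.21 ± 0.18, limma adjusted p = 0.00172). Rxrg, a retinoid receptor that can pair with thyroid hormone receptors, was at 2.84, 6.54 and 3.71 FPKM in CKO replicates 1, 2 and 3, against 21.5, 15.6 and 15.2 FPKM in flox replicates 1, 2 and 3 (−1.82 ± 0.26, limma adjusted p = 0.00797). Thrb, a thyroid hormone receptor (−0.95), Slc16a10, a transporter of aromatic amino acids and thyroid hormone (−0.92), and Thrsp, a hormone-responsive gene of fat and liver (−0.52), were also lower. Thra, the other thyroid hormone receptor gene, averaged 19.4 FPKM in CKO-labelled hearts and 32.2 FPKM in flox hearts. It was not called (−0.69, limma adjusted p = 0.0705), nor were Klf9 (−0.74) and Hr (0.78) of the same list. Dio2 and Rxrg stayed called whichever heart was left out (highest limma adjusted p 0.0366). Those of Thrb, Slc16a10 and Thrsp were lost in 5, 3 and 6 of the 6 fits without 1 heart, flox replicates 1 and 2 and CKO replicate 3 among them for each. Thrsp also lost its call with a pseudocount of 0.1, TPM, total-count scaling, quantile normalization and voom (limma adjusted p of 0.0513 to 0.0947).

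**Figure D5:**
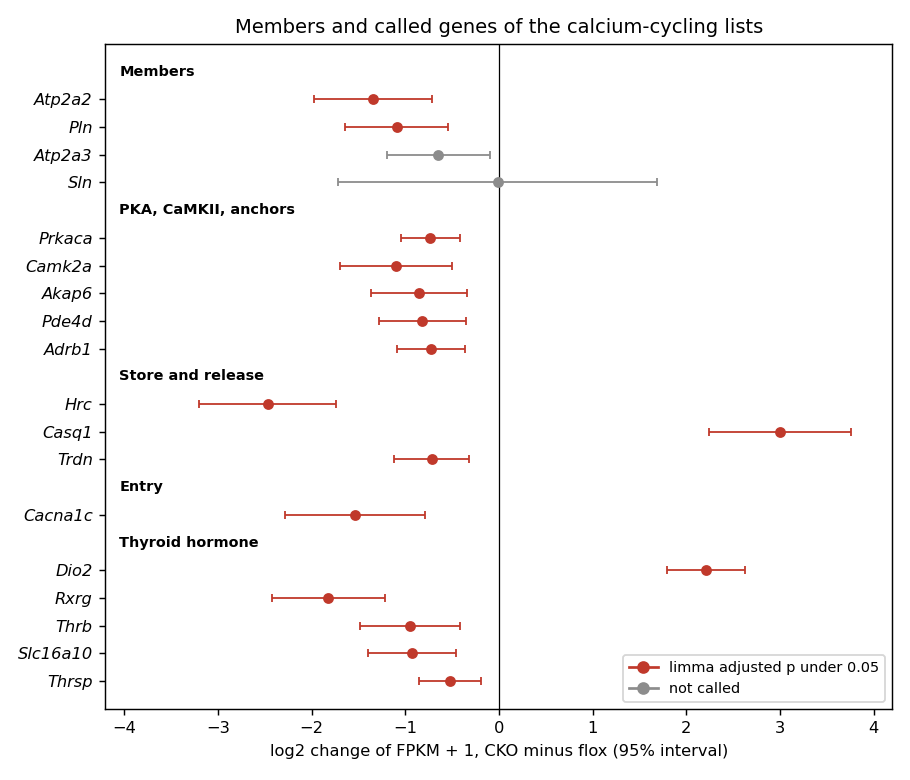
Log2 change of FPKM + 1, CKO minus flox, with its 95% interval, for the 4 tested members and the called genes of the lists around them; red marks a limma adjusted p under 0.05. Atp2a2 (−1.34) and Pln (−1.09) lie left of 0 with most of the called genes, Casq1 (3.00) and Dio2 (2.21) lie right, and the interval of Sln runs from −1.72 to 1.69.

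The protein-coding genes whose levels ran most like those of each member over the 6 hearts were taken by the Pearson correlation of log2(FPKM + 1), as a description. For Atp2a2 these were Gsg1l, Phtf2 and Dsc2 (0.999, 0.998 and 0.997), for Pln Fbxo10, Ppip5k2 and Pigo (0.999, 0.996 and 0.996), for Atp2a3 Furin, Ctsf and Gaa (0.993, 0.992 and 0.991), and for Sln Ddx39b, Fam117b and Arglu1 (0.990, 0.956 and 0.954). Gsg1l, for instance, was at 1.25, 2.03 and 2.14 FPKM in CKO replicates 1, 2 and 3, against 4.76, 4.47 and 3.40 FPKM in flox replicates 1, 2 and 3, the same order of hearts as Atp2a2. The 6 hearts share the split by genotype, and the correlations carry no test.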

How the data were processed

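The authors deposited FPKM for each gene and heart. Alignment and counting tools named per the submitters' processing notes were HISAT2 and featureCounts, beside CASAVA and DESeq2, with genome GRCm38. Whether counting used strand is unknown. Multiplied by gene length, the deposited FPKM gave whole reads for 100% of values above 0 (tolerance 0.01). The deposited values were scaled by median ratios (size factors 0.893 to 1.07).

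Genes averaging 1 FPKM or more (12469) entered a limma fit (version 3.58.1, R 4.3.3) of log2(FPKM + 1) (genotype only, trend, two-sided, Benjamini-Hochberg over all genes). Fold changes on that scale understate changes of low genes. Single genes were also compared by exact permutation. Exons were taken from GENCODE M21 on the same build. The fit was tested on simulated data.

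The members and lists were chosen with earlier results of these data known. Named genes were Nat10, the members, up to 4 called genes of each list with the largest change, overlapping genes, and the 3 most correlated genes per member. Adrb1, Thrsp, Camk2d, Slc8a1, Thra, Klf9, Hr, Ryr2, Casq2 and marker genes given with values were named after their values were seen. Hearts with the same number are not stated to be related, and deviations of same-numbered hearts correlated at −0.28, −0.14 and −0.19, so no pairing was used. The labels number the hearts as replicates, and each heart was taken as a separate animal.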

Additional observations from a re-analysis of the deposited data

How the results depend on the processing

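The directions of Atp2a2, Pln and Atp2a3 were kept under all 13 other settings and the 6 fits without 1 heart. Of the 5 genes, 2 were called with the deposited scaling, and 0 to 3 without 1 heart. With no filter, 0 were called, with Atp2a2 at −1.34 and Pln at −1.09 (limma adjusted p = 0.122 and 0.0834). With the replicate number as a block, 0 were called too (Atp2a2 −1.34, limma adjusted p = 0.0722; Pln −1.09, limma adjusted p = 0.0683), although the numbers do not pair the hearts. Array weights called Atp2a3 (−0.76). Without 1 heart, the changes ran from −1.54 to −1.10 for Atp2a2, −1.32 to −0.94 for Pln, −0.93 to −0.49 for Atp2a3 and −0.48 to 0.88 for Sln. The sign of Sln turned with pseudocounts of 0.1 (0.82) and 0.5 (0.16), TPM (0.039), total-count scaling (0.042) and voom on recovered reads (1.58). That of Nat10 turned with TPM (0.056), total-count scaling (0.054), array weights (0.00085) and without flox replicate 3 (0.013; −0.10 to 0.013 over the fits). The cause was not tested.

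Over all genes, 864 were higher and 897 lower. These counts were 316 and 325 with no filter, 1327 and 1457 with array weights and 278 and 263 with the replicate block, and 193 to 960 and 171 to 844 without 1 heart. TPM gave 1447 higher and 654 lower, and total-count scaling 1295 and 655. Of the list genes, 2 were higher and 12 lower. The count of lower ones was 3 with no filter, 2 with the replicate block and 2 to 13 without 1 heart. With no filter or the replicate block, Camk2a, Akap6, Pde4d, Adrb1, Trdn, Cacna1c, Thrb, Slc16a10 and Thrsp lost their calls, and Prkaca with the block. The count of higher ones was 1 with a filter of 5 FPKM, 5 with TPM and 2 to 3 without 1 heart. The Pln to Atp2a2 difference ran from 0.020 to 0.049 without 1 heart.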
